A study of Mus musculus with 12 samples.

Results

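Mitosis and cytokinesis genes encode the machinery with which a cell enters mitosis, condenses and aligns its chromosomes, separates them and divides. A list of 35 such genes was followed in cultures of mouse microglia, macrophages that live in the brain. The members were chosen by name, from knowledge of what their proteins do, but with earlier results of these data known. They were found on the array through the transcript accession of each probe. All 35 had a probe on the array, through 48 probes in all, and all 35 were above background on enough arrays to be kept, out of 19801 genes kept in all. The RNA came from 12 arrays in 3 groups of 4, taken 16 h after treatment from experiments 12, 13, 14 and 16, which the study describes as independent. Untreated microglia received only T cell medium (IMDM), the Th1 group received the supernatant of a Th1 culture and the Th17 group that of a Th17 culture. Th1 and Th17 cells are helper T cells known for releasing interferon-gamma and interleukin-17, respectively. All groups shared the same source, microglia shaken off mixed glial cultures of newborn C57BL/6 mouse brains, so the cells were taken from culture and not directly from a brain. Levels are given as log2 of the normalised signal, on which a difference of 1 is a 2-fold change, and 3.91 is the lowest value possible.

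Most of these genes are silent in resting cells and are transcribed as a dividing cell passes through G2 into mitosis, after which many of their proteins are destroyed through the anaphase-promoting complex, a ubiquitin ligase. Many carry in their promoters a short element called the cell cycle genes homology region, through which the MuvB protein complexes keep them off in quiescent cells and, with B-Myb and FoxM1, turn them on in G2, and CCAAT boxes bound by NF-Y. In culture, microglia divide in response to growth factors that the astrocytes of a mixed glial culture supply, and Ki-67 and cyclins are the usual markers of such division.

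Promoter windows, taken from RefSeq (build GRCm38.p6) from 250 bases before to 50 after a gene's start, were found for 30 of the 35 members, in 32 windows. No window was at hand for Ccna2, Foxm1, Aurkb, Tpx2 and Kif20a. The homology region was searched as TTTGAA or TTCGAA and the NF-Y box as CCAAT, both on either strand, and in 1 window the motifs shared bases. TTTGAA or TTCGAA was present in 25 of the 32 member windows (78.1%) and in 19.2% of all 32851 windows of the table. CCAAT was present in 25 member windows as well, against 37.4% of all windows, and both motifs were present in 22 of them (68.8%), against 7.52% of all windows. In 21 of the 30 genes a TTTGAA or TTCGAA motif began within 50 bases of the start, and 16 genes held 2 or more CCAAT boxes. These are matches of letters in a window, and whether a protein binds there was not measured. The 120 bases before the start are shown for 5 members that fell and hold both motifs close to the start (for Prc1 from the second of its 2 windows). They are also shown for Ccnb1, which fell and holds a pair of CCAAT boxes but neither TTTGAA nor TTCGAA in its window. The last is Kif2c, the only member with a change above 0 after Th1 supernatant. No other form of the homology region was searched. Capitals mark TTTGAA and CCAAT, or their reverse complements TTCAAA and ATTGG.
Cdk1, chr10:69352913-69353032, minus strand: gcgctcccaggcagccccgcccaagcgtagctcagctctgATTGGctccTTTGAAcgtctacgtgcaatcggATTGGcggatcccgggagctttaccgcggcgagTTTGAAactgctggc
Cdc20, chr4:118437344-118437463, minus strand: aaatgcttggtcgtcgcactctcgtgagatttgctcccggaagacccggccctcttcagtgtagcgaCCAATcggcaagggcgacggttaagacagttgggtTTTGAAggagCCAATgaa
Ube2c, chr2:164769809-164769928, plus strand: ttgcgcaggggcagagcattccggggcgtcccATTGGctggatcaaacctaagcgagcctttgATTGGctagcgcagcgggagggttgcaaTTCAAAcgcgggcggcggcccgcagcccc
Kif11, chr19:37376262-37376381, plus strand: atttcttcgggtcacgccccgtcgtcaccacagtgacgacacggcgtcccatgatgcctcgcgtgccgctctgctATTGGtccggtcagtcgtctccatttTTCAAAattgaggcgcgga
Prc1, chr7:80294356-80294475, plus strand: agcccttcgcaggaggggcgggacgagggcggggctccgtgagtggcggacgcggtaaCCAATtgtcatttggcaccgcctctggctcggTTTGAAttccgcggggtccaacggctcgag
Ccnb1, chr13:100786487-100786606, minus strand: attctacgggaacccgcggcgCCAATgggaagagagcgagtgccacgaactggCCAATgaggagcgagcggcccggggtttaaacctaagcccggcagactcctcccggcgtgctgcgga
Kif2c, chr4:117178773-117178892, minus strand: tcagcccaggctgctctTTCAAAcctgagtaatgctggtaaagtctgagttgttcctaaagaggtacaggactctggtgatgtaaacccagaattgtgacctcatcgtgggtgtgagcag
In Prc1, Cdc20, Ube2c and Kif11 the homology region motif began 30, 18, 29 and 19 bases before the start, and a CCAAT box lay upstream of it. In Cdk1 a pair of such motifs began 71 and 15 bases before the start. In Kif2c the only such motif began 103 bases before the start and the window held no CCAAT. Neither trait was particular to Kif2c. The windows of Ndc80 and Anln, which fell, also held no CCAAT. In Mki67, which fell as well, no such motif began within 50 bases of the start. The windows of Ncaph, Nuf2, Birc5 and Nusap1 held neither motif.

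Th1 supernatant lowered 30 of the 35 members and raised none. Calls required a limma adjusted p under 0.01 together with a change of over 2-fold, and by that rule 7.88% of all genes were lower and 7.49% were higher after Th1 supernatant. The median log2 change was -1.88 over the members and -0.06 over all genes. The members ran from -2.80 for Ccnb2 to 0.61 for Kif2c. The 5 members that were not called were Ttk and Aurkb, at -1.60 ± 0.45 and -1.52 ± 0.44 (SE), and Cenpf, Tpx2 and Kif2c. In 31 members every Th1 array lay below every untreated array, a pattern that 21.9% of all genes showed, and the exceptions were Cenpf, Aurkb, Kif2c and Tpx2. Kif2c had every Th1 array above every untreated array, as 18.8% of all genes did. In bulk RNA of this kind, fewer cells that express a gene and less RNA per cell cannot be told apart.

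**Figure D1:**
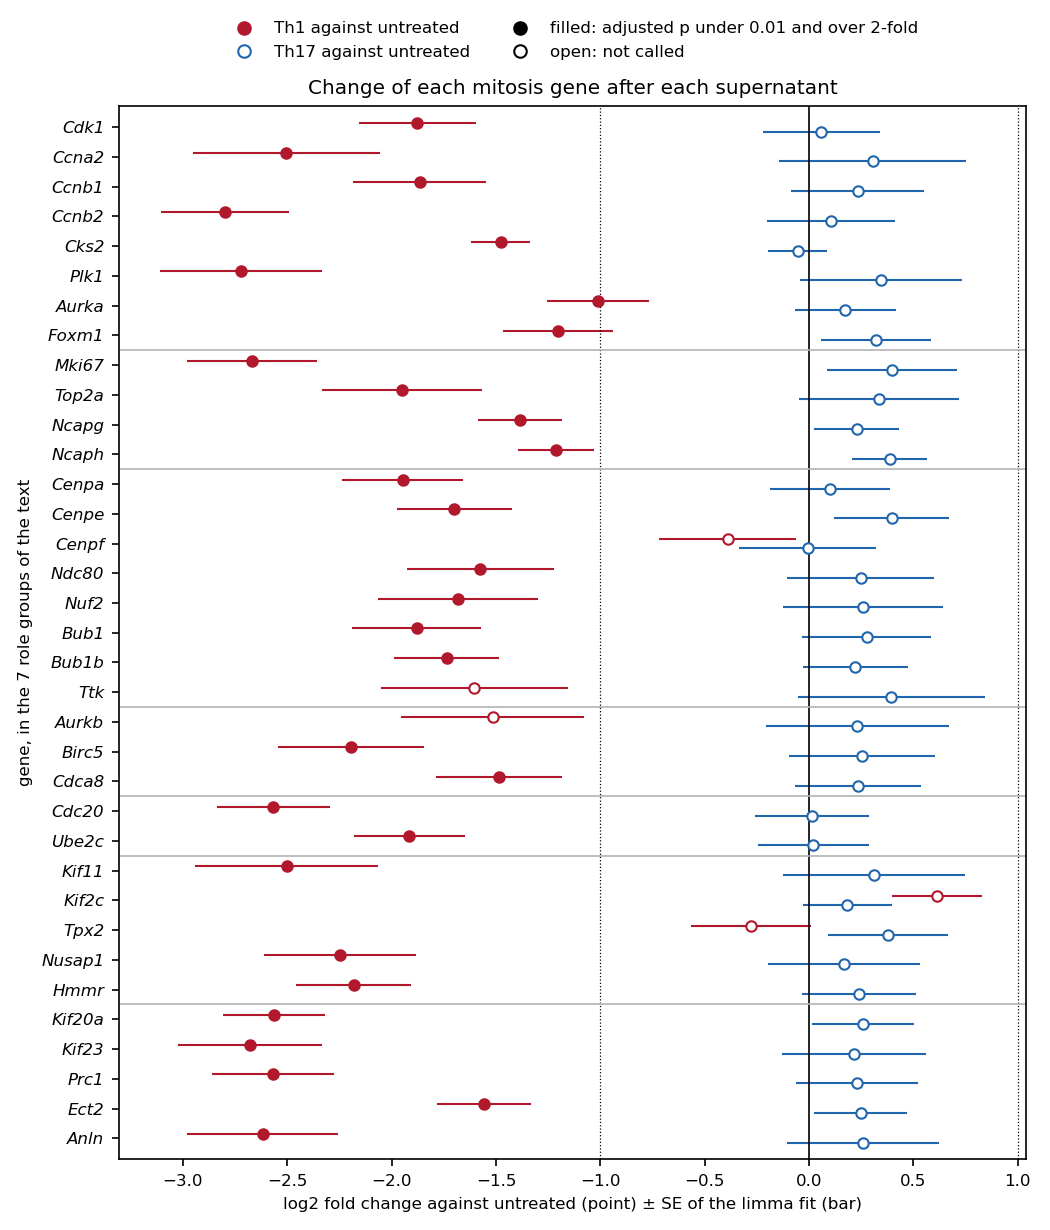
Log2 fold change of each of the 35 members against untreated microglia (points) with the SE of the limma fit (bars, 4 arrays per group), for Th1 supernatant in red and Th17 supernatant in blue, with dotted lines at 2-fold. The Th1 points of 32 members lie left of -1, 30 of them filled as called, while the Th17 points run from -0.06 to 0.40 and are all open.

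The 8 genes of mitotic entry were all lower after Th1 supernatant, with a median of -1.87. Ccnb2, a cyclin B that activates Cdk1, changed most. On the untreated arrays of experiments 12, 13, 14 and 16, the order used throughout, its level was 13.14, 12.87, 12.01 and 13.27, on the Th1 arrays 9.999, 10.23, 9.28 and 10.60 and on the Th17 arrays 12.89, 12.84, 12.74 and 13.23. All Th1 values lay below all others, while the untreated and Th17 values overlapped. The change after Th1 supernatant was -2.80 ± 0.31 (SE), 6.95-fold, with a limma adjusted p of 2.57e-05. Aurka, the kinase of centrosomes and spindle poles, changed least of the 8. Its untreated values were 12.12, 12.12, 11.72 and 12.64, its Th1 values 11.26, 11.20, 10.62 and 11.48 and its Th17 values 11.95, 12.39, 12.16 and 12.79. The groups did not overlap between untreated and Th1, but the change of -1.01 ± 0.24 (limma adjusted p = 0.00565) was only just over 2-fold. Its call was lost without any one of the Th1 arrays of experiments 12, 13 and 14 or the untreated arrays of experiments 12, 13 and 16, with changes of -1.05 to -0.84 and limma adjusted p of 0.012 to 0.0168. It was also lost, at -0.98 to -0.95, with the slide as a block, with normexp background correction, without quantile normalisation and in the deposited value table. With all arrays and the experiment as a block the call of Aurka stood (limma adjusted p = 0.000255).

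The other genes of mitotic entry lay between these. Cdk1, the kinase that drives entry into mitosis, ranged from 11.04 to 12.01 untreated and from 8.97 to 10.15 after Th1 supernatant, a change of -1.88 ± 0.28 (limma adjusted p = 0.000247), and another probe, above background on 3 of 4 Th1 arrays, gave -1.99. The remaining probe was above background on 4 untreated and 1 Th1 array, with the other 3 Th1 values at the lowest value possible, so that its difference of -1.35 is set by the floor. Ccnb1, the other B-type cyclin, ranged from 11.14 to 12.41 untreated and from 9.11 to 10.56 after Th1 supernatant, a change of -1.87 ± 0.32. Its 3 probes gave changes between -1.89 and -1.59. Ccna2, the cyclin of S phase and G2, changed by -2.50 ± 0.45, with 11.73 to 13.05 untreated and 8.60 to 10.84 after Th1 supernatant. Plk1, the polo-like kinase that acts at centrosomes, kinetochores and the midzone, changed by -2.72 ± 0.39, with untreated levels of 12.13 to 13.33 and Th1 levels of 8.83 to 10.81. Cks2, a small protein that docks Cdk1 to its substrates, had the smallest error of all members and changed by -1.48 ± 0.14 (limma adjusted p = 1.00e-05), with 9.22 to 9.69 untreated and 7.66 to 8.15 after Th1 supernatant. Foxm1, the transcription factor that switches on genes of G2 and mitosis, changed by -1.20 ± 0.26 (limma adjusted p = 0.00331), with untreated levels of 9.39 to 10.699 and Th1 levels of 8.60 to 9.19, and a second probe, above background on 3 of 4 Th1 arrays, by -1.59. The call of Foxm1 was lost without the Th1 array of experiment 13 (limma adjusted p = 0.0119) or the untreated array of experiment 12 (limma adjusted p = 0.0112). It stood with all arrays and the experiment as a block (limma adjusted p = 0.000771). All 8 genes were thus lower on every Th1 array than on any untreated array, whatever the size of the change.

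All 4 genes of chromosome structure were lower, with a median of -1.67. Mki67 encodes Ki-67, which coats mitotic chromosomes and marks dividing cells in tissue sections. Its level was 13.19, 13.65, 12.78 and 14.01 on the untreated arrays, 10.49, 10.93, 10.09 and 11.46 on the Th1 arrays and 13.73, 13.82, 13.52 and 14.16 on the Th17 arrays. Every Th1 array lay more than 2-fold below every untreated array, and every Th17 array lay above the untreated array of its own experiment. The change after Th1 supernatant was -2.67 ± 0.31 (limma adjusted p = 4.19e-05), or 6.36-fold, and a second probe gave -2.70. Ncaph, a condensin subunit, changed least here, with untreated values of 13.06, 12.83, 12.84 and 13.41, Th1 values of 12.12, 11.82, 11.43 and 11.91 and Th17 values of 13.30, 13.72, 13.20 and 13.46. The Th1 values again lay below all others, by -1.21 ± 0.18 on average (limma adjusted p = 0.000241). Top2a, the topoisomerase that untangles sister chromatids, changed by -1.95 ± 0.38, with 11.04 to 12.01 untreated and 8.34 to 10.39 after Th1 supernatant. Ncapg, another condensin subunit, was close to background, above it on 4 untreated, 3 Th1 and 4 Th17 arrays, and changed by -1.38 ± 0.20, with untreated levels of 5.91 to 6.32 and Th1 levels of 4.56 to 4.88. Its call was lost with a floor of 50 on the signal (-0.45, limma adjusted p = 0.0957) or normexp background correction (-0.30, limma adjusted p = 0.0113).

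Of the 8 genes of the centromere, kinetochore and spindle checkpoint, 6 were lower, and the median was -1.69. Cenpa, the histone H3 variant that marks the centromere, changed most. Its untreated values were 12.36, 12.14, 11.22 and 12.57, its Th1 values 10.35, 10.10, 9.71 and 10.34 and its Th17 values 12.47, 11.92, 11.76 and 12.55. The Th1 arrays lay below all others, with a change of -1.95 ± 0.29 (limma adjusted p = 0.000243). Cenpf, a large kinetochore protein, had the smallest difference and was hardly measurable. Its values were 3.96, 4.79, 4.12 and 5.03 untreated, 3.91, 3.91, 4.63 and 3.91 after Th1 supernatant and 4.48, 5.32, 3.91 and 4.17 after Th17 supernatant. It was above background on all 4 untreated arrays, on no Th1 array and on 2 Th17 arrays, and its untreated mean of 4.48 lay below the limit of 4.51 that the Th1 arrays could have shown, so no fold can be given for it.

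Ndc80 and Nuf2, which form the arm that grips microtubules, were both lower, Ndc80 by -1.57 ± 0.35 (limma adjusted p = 0.00368) and Nuf2 by -1.68 ± 0.38 (limma adjusted p = 0.00405). Ndc80 ranged from 9.23 to 10.30 untreated and 7.28 to 8.84 after Th1 supernatant, and Nuf2 from 9.34 to 10.56 and 7.18 to 8.98. Without the untreated array of experiment 12, 13 or 16 both lost their calls, with limma adjusted p of 0.0113 to 0.0133, although the changes stayed between -1.67 and -1.45. With all arrays and the experiment as a block both were called (limma adjusted p = 6.37e-05 for Ndc80 and 0.000154 for Nuf2). Cenpe, a kinetochore motor, changed by -1.70 ± 0.28, with 11.49 to 12.76 untreated and 9.75 to 10.87 after Th1 supernatant. Among the checkpoint kinases, which hold anaphase back until all chromosomes are attached, Bub1 changed by -1.88 ± 0.31 and Bub1b by -1.74 ± 0.25. Bub1 ranged from 9.29 to 10.36 untreated and 7.06 to 8.31 after Th1 supernatant, and Bub1b from 10.31 to 10.79 and 7.88 to 9.18. Ttk, the kinase that starts the checkpoint, is shown on each array because of its spread, a choice made after its values were seen. Its values were 7.17, 7.30, 6.30 and 7.33 untreated, 5.98, 5.93, 3.91 and 5.87 after Th1 supernatant and 7.29, 8.06, 6.88 and 7.45 after Th17 supernatant. The Th1 arrays lay below all others, but the array of experiment 14 was at the lowest value possible and not above background. The change of -1.60 ± 0.45 missed the threshold (limma adjusted p = 0.013) and passed it with the experiment as a block (limma adjusted p = 0.00067) or without the untreated array of experiment 14 (-1.84, limma adjusted p = 0.00907).

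The chromosomal passenger complex, which corrects faulty attachments and later marks the division plane, had 2 of 3 genes called, with a median of -1.52. Birc5, or survivin, had untreated values of 14.38, 14.11, 13.51 and 14.75, Th1 values of 12.26, 12.16, 10.91 and 12.62 and Th17 values of 14.21, 14.68, 14.23 and 14.63. Its change was -2.19 ± 0.35 (limma adjusted p = 0.000393), and its other 2 probes gave -2.09 and -2.04. Cdca8, or borealin, changed least, with untreated values of 13.19, 13.05, 12.42 and 13.68, Th1 values of 11.75, 11.68, 10.84 and 12.12 and Th17 values of 13.13, 13.48, 13.01 and 13.66. In both genes the Th1 arrays lay below all others, and the change of Cdca8 was -1.49 ± 0.30 (limma adjusted p = 0.00201). Aurkb, the kinase of the complex, is shown on each array for the reason given for Ttk. Its values were 6.58, 6.82, 4.83 and 6.85 untreated, 5.29, 4.58, 3.91 and 5.24 after Th1 supernatant and 6.38, 6.82, 6.29 and 6.52 after Th17 supernatant. The untreated array of experiment 14 lay below 2 Th1 arrays of other experiments, so that the groups overlapped, yet within each experiment the Th1 array was the lower. The change of -1.52 ± 0.44 (limma adjusted p = 0.0151) passed the threshold with the experiment as a block (limma adjusted p = 0.00272) and without the untreated array of experiment 14 (-1.997, limma adjusted p = 0.000388).

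Both partners of the anaphase-promoting complex were lower, with a median of -2.24. Cdc20 activates the complex at anaphase. Its values were 12.32, 12.43, 11.80 and 12.65 untreated, 9.83, 10.02, 8.91 and 10.17 after Th1 supernatant and 12.28, 12.25, 12.02 and 12.70 after Th17 supernatant, so that every Th1 array was more than 2-fold below every other array. The change was -2.57 ± 0.27 (limma adjusted p = 2.02e-05). Ube2c, the enzyme that hands ubiquitin to the complex, had untreated values of 12.63, 12.54, 11.97 and 13.04, Th1 values of 10.74, 10.95, 10.21 and 10.62 and Th17 values of 12.09, 12.90, 12.27 and 13.01. Its change was -1.92 ± 0.27 (limma adjusted p = 0.000149), and its second probe gave -2.49. The complex itself, in a list of 15 genes that held its subunits and the co-activator Fzr1, had no gene called and a median of -0.15.

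The spindle genes were the least uniform group, with 3 of 5 called and a median of -2.18. Kif11, the kinesin that pushes the spindle poles apart, changed most, with untreated values of 9.10, 9.44, 8.53 and 9.49, Th1 values of 6.86, 6.91, 5.16 and 7.63 and Th17 values of 9.30, 9.73, 9.02 and 9.76. The Th1 array of experiment 14 was the lowest, and all Th1 arrays lay below all others, with a change of -2.50 ± 0.44 (limma adjusted p = 0.000753). Nusap1, which bundles spindle microtubules, changed by -2.25 ± 0.36, with untreated levels of 10.25 to 11.32 and Th1 levels of 7.46 to 9.23, and Hmmr, a hyaluronan receptor that also sits on the spindle, by -2.18 ± 0.27, with 10.57 to 11.41 untreated and 8.07 to 9.33 after Th1 supernatant. Tpx2, which targets and activates Aurora A on the spindle, had the smallest difference. Its values were 11.36, 11.31, 10.46 and 11.90 untreated, 11.39, 10.82, 11.04 and 10.65 after Th1 supernatant and 11.51, 11.80, 11.18 and 12.04 after Th17 supernatant. The Th1 values lay inside the untreated range, within experiments the Th1 array was the lower in 2 of 4, and the change of -0.28 ± 0.29 did not pass the test (limma adjusted p = 0.459). A second probe for another transcript accession of Tpx2 gave -1.13 (limma adjusted p = 0.0538), with 3 of 4 Th1 arrays above background.

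Kif2c, a kinesin that takes microtubules apart at kinetochores, ran against the other members, and its array values are given for that reason. They were 8.93, 9.02, 8.19 and 9.22 untreated, 9.35, 9.64, 9.52 and 9.31 after Th1 supernatant and 8.83, 9.31, 8.72 and 9.24 after Th17 supernatant. The Th1 array was the higher within all 4 experiments, by 0.09 in experiment 16 and by 1.33 in experiment 14. The change of 0.61 ± 0.21, 1.53-fold, did not pass the rule (limma adjusted p = 0.0364). A second probe for the same accession gave 0.48 (limma adjusted p = 0.111). Against the Th17 arrays Kif2c differed by 0.43 ± 0.21 (limma adjusted p = 0.128).

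The 5 genes of the central spindle and cytokinesis were all lower and had the lowest median of the 7 groups, -2.57. Kif23, a motor of the centralspindlin complex, had untreated values of 10.63, 10.62, 9.60 and 11.05, Th1 values of 8.03, 7.79, 7.005 and 8.36 and Th17 values of 10.75, 10.82, 10.15 and 11.04. The change was -2.68 ± 0.34 (limma adjusted p = 8.32e-05), or 6.4-fold. Ect2, the exchange factor that switches on RhoA at the division plane, changed least, with untreated values of 10.14, 10.16, 9.58 and 10.54, Th1 values of 8.72, 8.69, 8.08 and 8.71 and Th17 values of 10.11, 10.72, 10.12 and 10.46. In both genes all Th1 arrays lay below all others, and the change of Ect2 was -1.56 ± 0.22 (limma adjusted p = 0.000192). Anln, or anillin, which scaffolds the contractile ring, changed by -2.62 ± 0.36, with untreated levels of 11.28 to 12.21 and Th1 levels of 7.96 to 9.88. Prc1, which crosslinks the midzone microtubules, changed by -2.57 ± 0.29, with 11.85 to 12.98 untreated and 9.24 to 10.59 after Th1 supernatant. Kif20a, the motor that carries the passenger complex to the midzone, changed by -2.56 ± 0.25 (limma adjusted p = 9.36e-06), with untreated levels of 10.89 to 11.77 and Th1 levels of 8.15 to 9.21, and had the lowest adjusted p of all members.

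**Figure D2:**
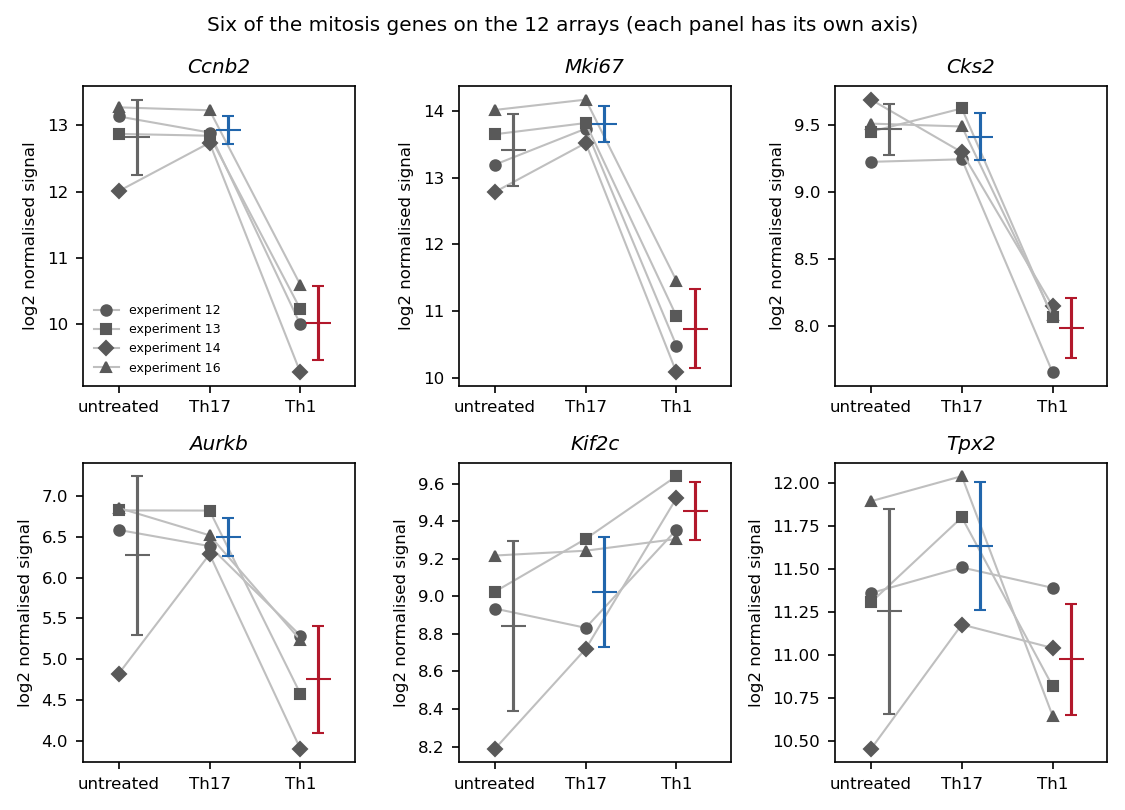
Log2 normalised signal of 6 members on the 12 arrays. Symbols are single arrays, grey lines join the arrays of an experiment, and coloured bars to the right of them give the mean ± SD of a group (n = 4). Ccnb2, Mki67 and Cks2 separate the Th1 arrays from all others, Aurkb overlaps through the untreated array of experiment 14 at 4.83, Kif2c is highest on the Th1 arrays and Tpx2 does not separate.

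After Th17 supernatant no member was called, and limma called 0% of all genes. At an unadjusted p under 0.05 the count was 0 of the 35 members and 325 of all genes. The lowest unadjusted p of a member was 0.0538, for Ncaph, with a change of 0.39 ± 0.18. The median log2 change was 0.24 over the members and 0.00 over all genes. Above 0 were 33 of the 35 members, against 49.2% of all genes, the exceptions being Cks2 at -0.06 and Cenpf at -0.01. The members' levels moved together between experiments, as described below, so these values are not separate observations. The values ran up to 0.40 for Mki67, 0.40 for Cenpe and 0.39 for Ttk. Within experiments the member median was 0.03, 0.35, 0.54 and 0.04, so that it was above 0.3 only in experiments 13 and 14. With the experiment as a block, limma again called no member and 0 of all genes, and the lowest adjusted p of a member was 0.901.

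The Th1 and Th17 groups were also compared directly. Of the 35 members 32 were lower in the Th1 group and none was higher, where limma called 7.91% of all genes lower and 6.89% higher. The members' median difference was -2.05. The same 32 members had every Th1 array below every Th17 array, as 22.6% of all genes did, and Cenpf, Kif2c and Tpx2 were the exceptions. This comparison shares the Th1 arrays with that against untreated, which in turn shares the untreated arrays with that of Th17, so the 3 are not independent. The difference was -3.07 ± 0.31 for Mki67 (limma adjusted p = 1.81e-05), -3.06 ± 0.39 for Plk1 (limma adjusted p = 8.61e-05) and -2.90 ± 0.31 for Ccnb2 (limma adjusted p = 2.32e-05). Ttk and Aurkb, not called against untreated, were called here with -1.997 ± 0.45 (limma adjusted p = 0.00397) and -1.75 ± 0.44 (limma adjusted p = 0.00732). The call of Aurkb was lost without the Th1 array of experiment 13 or 14, without any one Th17 array or without the untreated array of experiment 12 (limma adjusted p of 0.0104 to 0.023), and that of Ttk without the Th17 array of experiment 13 or 16 (limma adjusted p of 0.0105 and 0.013). Normexp background correction left differences of -0.50 for Aurkb and -0.67 for Ttk, under 2-fold.

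**Figure D3:**
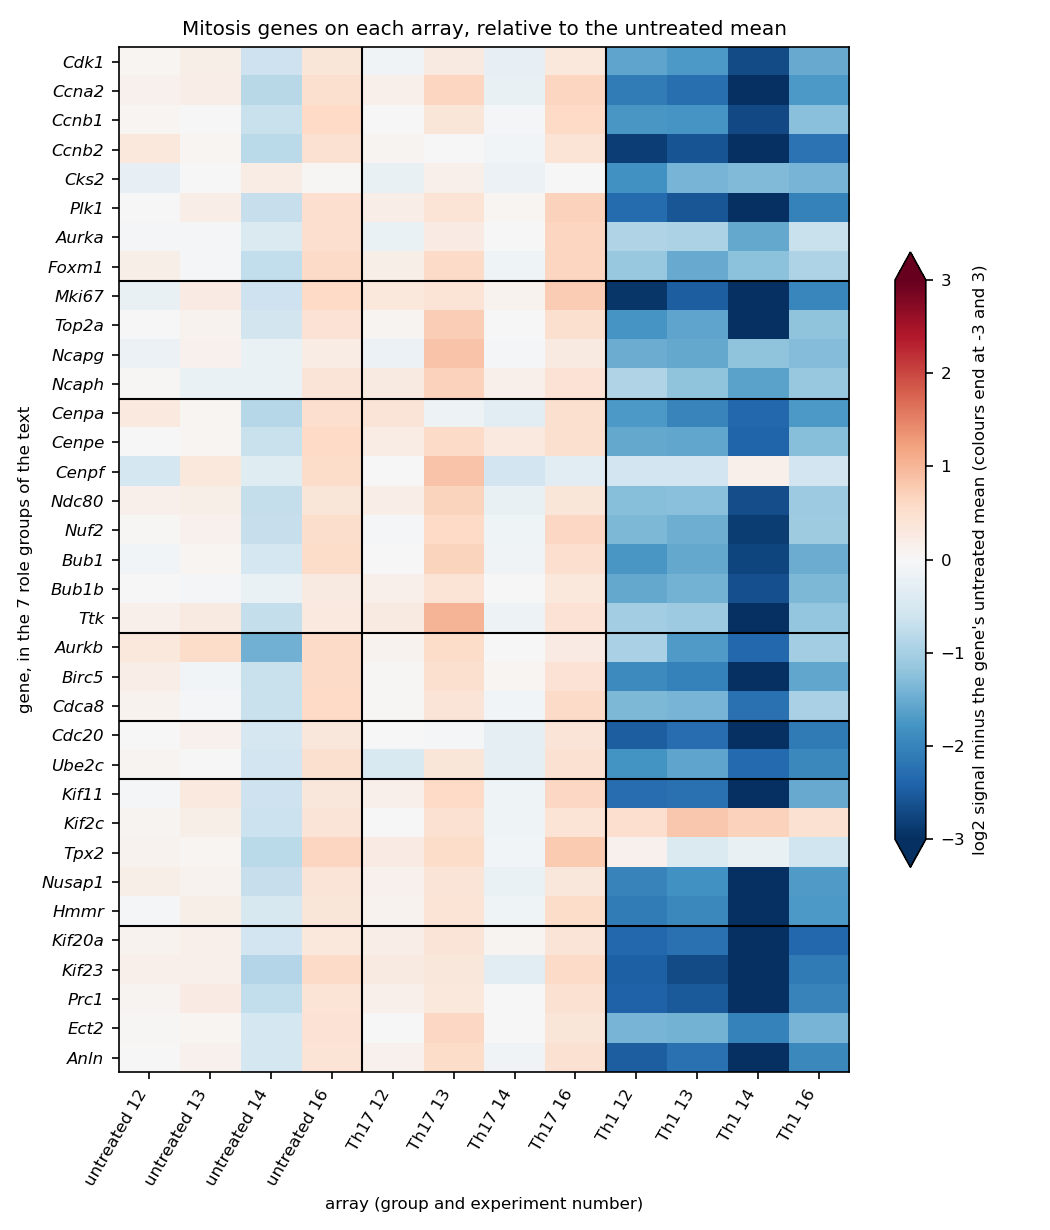
Log2 signal of each member (rows, in the 7 role groups divided by lines) on each array (columns, by group and experiment), minus the gene's mean over the 4 untreated arrays, with blue for lower and red for higher. The Th1 columns are blue in nearly all rows, with Kif2c, Tpx2 and Cenpf standing out as pale or red, and the columns of experiment 14 are the bluest of each group in most rows.

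The level of the members also differed between experiments. The median level of the 35 genes on the arrays of experiments 12, 13, 14 and 16 was 11.56, 11.61, 10.89 and 11.90 untreated. It was 9.35, 9.64, 8.60 and 9.88 after Th1 supernatant and 11.56, 11.84, 11.41 and 11.97 after Th17 supernatant. Experiment 14 was lowest and experiment 16 highest in each group. The array of experiment 14 was the lowest untreated array for 32 members and 37.9% of all genes. It was the lowest Th1 array for 29 members and 28.6% of all genes, and the lowest Th17 array for 28 members and 26.6% of all genes. Cks2, by contrast, had its highest untreated value there. Within experiments the difference between Th1 and untreated arrays had member medians of -1.66, -1.68, -2.16 and -1.86. The medians over all genes were -0.05, -0.07, -0.05 and -0.04. Without experiment 14, a setting chosen after the data were seen, 31 members and 1450 of all 19801 genes were called lower, and the member median was -1.76. The arrays lay on 3 slides that each held all 3 groups but mixed experiments. Within slides 1 to 3 the member median was -1.74, -1.58 and -1.86 for Th1 against untreated and 0.02, 1.08 and -0.27 for Th17 against untreated, the last of which runs the other way. On slide 2 the Th17 array of experiment 13 met the untreated array of experiment 14. On slide 3 the Th17 arrays of experiments 14 and 16 met the untreated array of experiment 16. Differences between groups and between experiments therefore cannot be told apart within these slides.

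**Figure D4:**
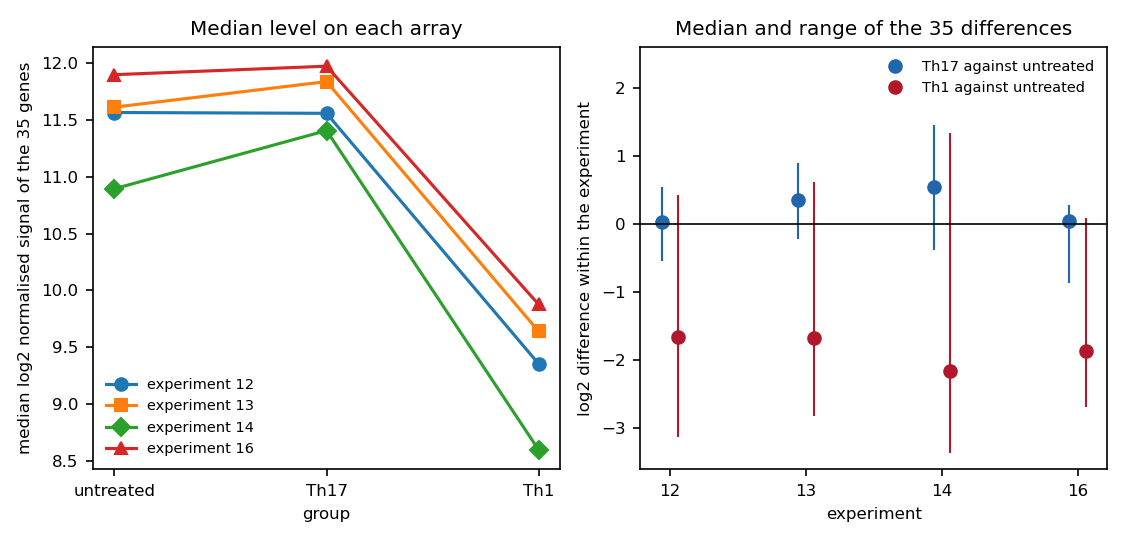
Left, the median log2 normalised signal of the 35 members on each array by group, with lines joining the arrays of an experiment. Right, within each experiment, the median (point) and the range from lowest to highest (bar) of the 35 log2 differences from the untreated array, with Th1 medians between -2.16 and -1.66 in red and Th17 medians between 0.03 and 0.54 in blue.

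Markers of the cell types such a culture could hold were read beside these levels. All 11 microglia markers with a probe were above background on every array. Their summed normalised signal was 1188000 to 1575000 on untreated, 957600 to 1034000 on Th1 and 1196000 to 1612000 on Th17 arrays, and 4 of the 11 were called lower and 3 higher after Th1 supernatant. Of 12 astrocyte markers 4 to 7 were above background on untreated, 6 to 8 on Th1 and 5 to 7 on Th17 arrays. Aqp4, Aldh1l1, Fabp7 and Aldoc were so on every array, and Gja1, Sox9, Gjb6 and Slc4a4 on none. The summed signal of the 12 was 5021 to 12090 untreated, 4260 to 5856 after Th1 and 4188 to 11970 after Th17 supernatant. Of 10 T cell markers 5, namely Cd3e, Cd4, Cd28, Lck and Cd5, were above background on every array, and Cd3d, Cd3g, Cd8a, Cd2 and Il2ra on none. The 10 summed to 9874 to 11270 untreated, 7515 to 8688 after Th1 and 6593 to 11130 after Th17 supernatant. The 11 oligodendrocyte lineage markers summed to 32810 on the untreated array of experiment 14 and to 14520 to 21110 on the other 11 arrays. The sums of 7 endothelial markers were 14660 to 19000, 20070 to 28210 and 12190 to 14500, those of 7 neuron markers 6180 to 16300, 4273 to 5637 and 5929 to 10880, and those of 9 fibroblast and mural markers 2473 to 4110, 3305 to 4964 and 2397 to 3576, in the same order of groups. After Th1 supernatant the 7 astrocyte markers kept had a median log2 change of 0.15, with 1 call lower (Fabp7, -2.24) and 0 higher. Calls among 9 oligodendrocyte lineage markers were 2 lower (Cspg4, -4.24, and Mbp, -1.60) and 2 higher (Mag, 2.06, and Cnp, 1.67). For 5 T cell markers they were 2 lower (Cd28, -5.28, and Cd5, -1.31) and 1 higher (Lck, 2.35). Neuron markers, 6 in number, had 1 lower (Rbfox3) and 1 higher (Syn1, 1.78). Endothelial markers, 5 in number, had 0 lower and 1 higher (Vwf, 3.79). The 5 fibroblast and mural markers had 0 calls in either direction. The part of these differences in the members' levels was not tested. As a check of the treatment, 6 of 6 interferon-gamma response genes were higher after Th1 supernatant.

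A further 102 mitosis genes measured here, listed by the same kind of knowledge and also with earlier results known, were read beside the members. After Th1 supernatant 51 of them were lower and 2 higher, where 7.88% of all genes were lower and 7.49% higher. Their median was -1.20, and after Th17 supernatant none was called. With the experiment as a block 63 were lower and 2 higher, where 1844 and 1561 of all 19801 genes were. By role, 15 of 38 kinetochore and centromere genes, 17 of 26 spindle and centrosome genes, 12 of 17 mitotic control genes and 5 of 15 chromosome genes were lower. Of 6 genes listed under cytokinesis Stmn1, or stathmin, which destabilises microtubules, and Sapcd2, a spindle orientation factor, were lower, while Racgap1 (-0.47), Cit (-1.21), Shcbp1 (-0.29) and Arhgap11a (-0.51) were not called. The largest falls were those of Aspm, a spindle pole protein, at -3.80 ± 0.41 (limma adjusted p = 2.45e-05), and of Sapcd2, Pimreg and Depdc1b, at -3.19, -3.17 and -3.05. Aspm and Depdc1b were above background on 3 of 4 Th1 arrays. The 2 genes that rose were Pttg1, or securin, which restrains the protease that opens cohesin, at 1.23 ± 0.18 (limma adjusted p = 0.000194), and Sass6, a centriole protein, at 1.11 ± 0.15 (limma adjusted p = 0.000127). A second probe of Pttg1 gave 1.49. Against the Th17 arrays 66 of the 102 were lower and 1, Pttg1, was higher, where 7.91% of all genes were lower and 6.89% higher.

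Genes of the earlier cell cycle had medians closer to 0, and the counts lower among G1 genes and lower or higher among E2F, DREAM and Myb-MuvB factors were near the 7.88% lower and 7.49% higher of all genes. Of 34 DNA replication genes 8 were lower and none higher after Th1 supernatant, with a median of -0.84. The largest falls were those of the nucleotide synthesis enzymes Tk1 (-2.27), Rrm2 (-2.19) and Dut (-1.72) and of DNA ligase Lig1 (-1.55). Of 11 G1 cyclins and kinases, with a median of -0.12, Cdk6 was lower (-1.86 ± 0.28), while Ccnd2 (2.601 ± 0.43) and Ccnd3 (1.11 ± 0.18), both D-type cyclins, were higher. Of 20 Cdk inhibitors and p53 targets, with a median of -0.32, 4 were lower, namely Sesn1 (-2.58), Cdkn2c (-2.05), Trp53inp1 (-1.50) and Zmat3 (-1.28), and Cdkn2a, the locus of p16 and Arf, was higher (1.91 ± 0.28). Of 22 E2F, DREAM and Myb-MuvB factors, with a median of -0.30, E2f2 (-1.44) and E2f6 (-1.04) were lower, with 4 lower when the experiment was a block, and Rbl1, the pocket protein p107 of the DREAM complex, was higher (1.79 ± 0.19, limma adjusted p = 1.74e-05). No gene of these lists was called after Th17 supernatant.

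**Figure D5:**
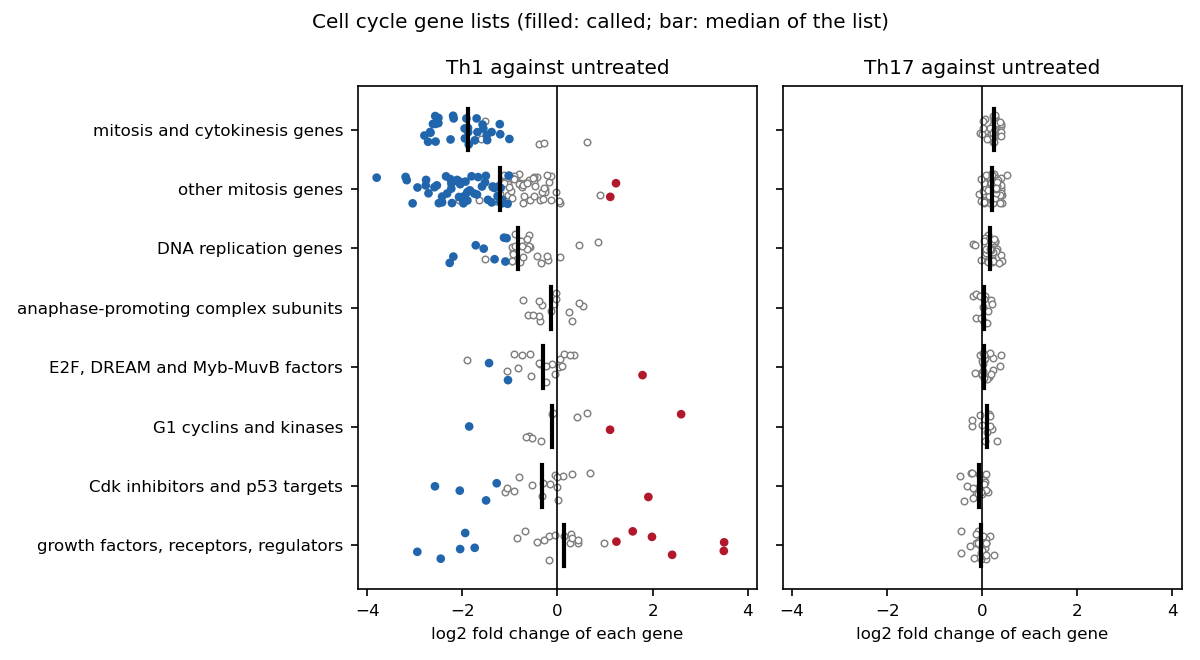
Log2 fold change of every measured gene of 8 lists (points, spread vertically at random within a list) after Th1 supernatant (left) and Th17 supernatant (right) against untreated, with filled points for called genes and a black bar at the list's median. The list of 35 members has the lowest Th1 median, -1.88, followed by the other mitosis genes at -1.20 and the DNA replication genes at -0.84, and no point is filled on the right.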

How the data were processed

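Each microglia RNA sample was read on 1 Agilent 4x44K mouse array in a single colour, Cy3. The deposited scanner files hold linear spot intensity values, which the authors read with Feature Extraction 10.7.3.1, per the file headers with background subtracted and a multiplicative detrending fit reported. A deposited table of log2 values, whose scale and centring its source does not state, correlated at 0.99999 or more per array with signals scaled to the 75th percentile and centred per probe, had array medians of -0.226 to 0.18, and served as an alternative only. Control spots were left out, as were spots marked as outliers or flagged by hand (103 to 230 per array). Spots of a probe were averaged by the geometric mean. Values were then quantile normalised, scaled to a 75th percentile of 1500, floored at 15 and log2 transformed. These steps follow the study's methods, except that its filters on replicate spread and pixel variation were not applied. The 12 arrays were also normalised without the study's astrocyte arrays. The study's methods call that detrending inactivated, and which of these holds for the deposited signals was not settled here. Before scaling the 75th percentile was 1292.7 to 2417.2, and 54.54% to 65.04% of probes were well above background per array. The number of arrays limits the precision. Probes above background on at least 4 of 12 arrays were kept, and a gene was read from its kept probe of highest mean signal. Symbols came from RefSeq accessions (27234 probes matched, 12195 not) in a GRCm38.p6 table used for names and promoter windows only.

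Groups came from the sample titles. Comparisons used R 4.3.3 and limma 3.58.1 (lmFit, eBayes, 12 arrays, 1 mean per group) with Benjamini-Hochberg adjustment over all genes, tested on simulated data beforehand. Genes were called at adjusted p under 0.01 and over 2-fold. The members and lists were chosen with earlier results of these data known. All 35 members are named, and array values are given for the members of largest and smallest Th1 change in each role group. Of other lists at most 4 called genes per direction are named. Experiment numbers pair the arrays, as deviations from group means correlated between arrays of the same number at 0.244 to 0.633 and otherwise at -0.421 to 0.123. Alternatives were other scaling, background correction (normexp on median signals with offset 50), filters, floors, blocks, slides, probe averaging, thresholds and leaving out arrays.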

Additional observations from a re-analysis of the deposited data

Results flagged for a closer look

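In 9 sets of 4 array values, from 8 members, 1 array stood apart from the other 3 by Dixon's criterion. In each group 36 sets were tested (35 members and their median). About 1 set in 20 would stand apart if the sets were independent. The members moved together between experiments, so the 9 sets cannot be weighed against that rate. All 9 were arrays of experiment 14. Among untreated arrays they were Ttk at 6.30 log2 signal, against 7.17 to 7.33 on the others, and Aurkb at 4.83, against 6.58 to 6.85. Among Th1 arrays they were Ndc80 at 7.28, Bub1b at 7.88, Ttk at 3.91, Nusap1 at 7.46, Kif20a at 8.15 and Ect2 at 8.08, all lower than on the other 3 arrays, and Cenpf at 4.63, higher than the other 3, which were at the lowest value possible. Cenpf was not above background on any of these Th1 arrays, and with its other 3 values equal any different value would have stood apart. No set stood apart in the Th17 group.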

How the results depend on the processing

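When any 1 array was left out, 26 to 32 members were called lower in the Th1 group than in the untreated group. Against the Th17 group 30 to 32 were lower, and no member was higher in either comparison. Of all 19801 genes, 1397 to 1666 were called lower against untreated and 1382 to 1682 against Th17 in the same settings. With any 1 array left out, the member median ran from -2.08 to -1.59 for Th1 against untreated, from 0.03 to 0.39 for Th17 against untreated and from -2.18 to -1.82 for Th1 against Th17. The median for Th1 against untreated moved by more than the spread between experiments under normexp background correction (-1.57), without the Th1 array of experiment 14 (-1.59) and within slide 2 (-1.58). Within slides 2 and 3, on which the groups did not come from the same set of experiments, the median was 1.08 and -0.27 for Th17 against untreated. For Th1 against Th17 it was -2.62 and -1.59. At an adjusted p under 0.05 with no limit on the fold, 32 members were lower and 1, Kif2c, was higher after Th1 supernatant, with 4839 and 3939 of all genes in place of 1560 and 1484. Normexp called 955 and 1046 of all genes and 28 members lower.

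With the replicate number as a block, 32 members and 1844 of all genes were lower after Th1 supernatant, Ttk and Aurkb being added, and no other call of a member changed. The deposited value table gave 29 members and 1672 genes lower, the 8 arrays of both groups alone 28 and 1481, without Ndc80 and Nuf2, and no filter on dim probes 26 and 1358 (of 32451), without Aurka, Foxm1, Ndc80 and Nuf2. No member's called change reversed its sign under any setting tried. Over 871 values of single members under the alternatives for Th1 against untreated, 27 lost their call and 12 gained one. For Th1 against Th17, 18 of 871 lost it. Dim members, Cenpf, Ncapg, Aurkb and Ttk, are limited by their signal over background.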

Other observations

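Genes that govern the growth of macrophages, a list beside the cell cycle, moved in both directions after Th1 supernatant. Of 25 measured genes 5 were lower and 6 higher, where 7.88% of all genes were lower and 7.49% higher. Their median log2 change was 0.13, and none was called after Th17 supernatant. Cebpa, a transcription factor of the myeloid lineage, changed by -2.95 ± 0.26 (limma adjusted p = 5.71e-06), the growth factor Igf1 by -2.45 ± 0.14 and Myc, a transcription factor that promotes growth, by -2.05 ± 0.45 (limma adjusted p = 0.00329). Csf1, the growth factor that microglia depend on, rose by 3.498 and Mxd1, which competes with Myc for its partner Max, by 3.505, and the receptor subunits Csf2rb and Csf2rb2 rose by 2.41 and 1.99. The changes of the 4 probes of Igf1 differed by over 2-fold, from -3.82 to -2.45, all lower.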
